A study of Rattus norvegicus with 10 samples.

Results

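The liver reads the iron status of the body and answers by secreting hepcidin, and 10 genes of this circuit were followed in the liver of irradiated rats: Hamp, Bmp6, Id1, Smad7, Tfrc, Tfr2, Tf, Fth1, Ftl1 and Slc40a1. They were chosen by name, as the array probes whose transcript accession carries one of these symbols. All 10 genes had a probe, 17 probes in all, and 13426 named genes were tested on the array. The members were well above background on all 10 arrays except Bmp6, which was above background on 0 of 10.

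Liver RNA came from male Wistar rats, an outbred stock whose age is not given in the sources used here, with 1 array per rat and all livers taken 24 h after the time of irradiation. The control group held 3 rats that were not irradiated, and the TBI group held 3 rats given total-body irradiation of 6.5 Gy from a 60Co source at 2 Gy/min. The MASM + TBI group held 4 rats given MASM, a derivative of the alkaloid matrine, by the intragastric route at 30 mg/kg a day for 3 days and then the same irradiation. The dose is that of the labels, and the study's text gives a slightly lower one. The study's text mentions water in place of MASM for irradiated rats used in electron microscopy. Its methods describe tissue of all groups as taken for microscopy and liver of all groups for the arrays. The sources used here do not state whether the control and TBI rats on these arrays received water. No rats given MASM alone were analysed here, so an effect of MASM without irradiation cannot be read. RNA was taken from whole liver, so fewer cells of a type and less RNA per cell cannot be told apart.

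Groups follow the labels, whereas the brackets under the study's heat map place the arrays labelled control and TBI the other way round. On the arrays labelled TBI and MASM + TBI, Bax, a p53 target that promotes apoptosis, had a mean log2 signal of 9.26 and 9.24, against 8.07 on the arrays labelled control. Bax was among the genes most like Hamp and Tfrc over these arrays, so it is no independent check of the labels. The mean log2 signal of 6 T lymphocyte markers lay between 4.92 and 5.19 on control arrays, between 3.35 and 3.88 on TBI arrays and between 3.55 and 4.36 on MASM + TBI arrays. Of these markers, 4 had lower and 2 (Lck and Cd5) higher estimates in each comparison with control. Cd3e and Cd5 were below background on every array. The 8 hepatocyte markers exceeded background on all arrays, and 0 of 8 passed an adjusted p under 0.05 in limma in any of the 3 comparisons, with 2, 2 and 0 at an unadjusted p under 0.05. Of all genes, 25.3% had an unadjusted p under 0.05 for TBI against control, 20.5% for MASM + TBI against control and 16.5% between the irradiated groups. Between 56.2% and 70.1% of the spots of an array were well above background, with the highest shares, 64.1% to 70.1%, in the TBI group. The control rats and MASM + TBI rat 3 shared slide 1, the TBI rats were alone on slide 2, and MASM + TBI rats 1, 2 and 4 were on slide 3. TBI and its slide therefore cannot be told apart.

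Iron leaves cells through ferroportin, the product of Slc40a1, and hepcidin, a peptide hormone made from Hamp by hepatocytes, closes that exit by driving ferroportin to degradation. Hamp is switched on by iron through BMP6 made in sinusoidal endothelium and the SMAD pathway, of which Id1 and Smad7 are standard read-outs, and by inflammation through IL-6 and STAT3. Inside the cell, iron regulatory proteins bind hairpins in messengers when iron is scarce, which stabilises the messenger of the transferrin receptor Tfrc and holds back translation of the ferritin subunits Fth1 and Ftl1.

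The upstream sequences of Hamp, Tfrc and Id1 are shown because these 3 members had higher signals in the irradiated livers. Each line runs 5′ to 3′ from base 250 to base 71 before the gene start that RefSeq annotates on the GRCr8 assembly, and capitals mark matches to the motifs searched. The stretches lie at chr1:95300342-95300521 on the minus strand for Hamp, chr11:81690389-81690568 on the minus strand for Tfrc and chr3:161671314-161671493 on the plus strand for Id1.
Hamp: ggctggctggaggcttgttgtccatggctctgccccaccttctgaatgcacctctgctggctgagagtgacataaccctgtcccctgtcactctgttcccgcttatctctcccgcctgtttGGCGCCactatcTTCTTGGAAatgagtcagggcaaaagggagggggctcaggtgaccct
Tfrc: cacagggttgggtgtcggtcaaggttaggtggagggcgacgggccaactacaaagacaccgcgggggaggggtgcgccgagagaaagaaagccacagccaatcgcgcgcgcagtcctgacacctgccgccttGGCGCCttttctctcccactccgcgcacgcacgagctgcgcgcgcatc
Id1: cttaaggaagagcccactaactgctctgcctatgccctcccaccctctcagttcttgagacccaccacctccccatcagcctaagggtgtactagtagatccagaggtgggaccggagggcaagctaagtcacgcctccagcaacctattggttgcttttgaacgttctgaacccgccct

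A set of 4 short motifs was searched on both strands of the 250 bases before the start: GGCGCC, the core of the BMP-responsive element of the hepcidin gene, TTCNNNGAA, the STAT site, CACGTG, an E-box, and GTCTAGAC, the palindromic SMAD box. Of the 10 members, 8 had an entry in the RefSeq promoter table, and Fth1 and Ftl1 were not among them. The Hamp stretch held GGCGCC at bases 129 to 124 before the start and TTCTTGGAA at bases 117 to 109, so that the BMP and STAT motifs stood 6 bases apart. Tfrc held GGCGCC at bases 118 to 113, Smad7 held it at 2 positions, and the Id1, Tf, Tfr2, Slc40a1 and Bmp6 stretches held no match to any of the motifs. Over 33469 RefSeq promoters, 8.69% held GGCGCC, 7.67% TTCNNNGAA, 5.59% CACGTG and 0.173% GTCTAGAC. These matches describe the letters of the reference and were not measured in these livers.

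Compared with control livers, 2 of the 10 members rose after TBI and 0 fell, at a Benjamini-Hochberg adjusted p under 0.05 in limma, while 6.63% of all 13426 genes passed in either direction. The 2 were Tfrc and Id1, and the same 2 genes rose in the MASM + TBI livers, where 3.70% of all genes passed and again 0 members fell. Between the irradiated groups 0 of the 10 members passed, while 1.08% of all genes passed. At an unadjusted p under 0.05 there were 3 members in that comparison, beside 16.5% of all genes. By the study's thresholds, an unadjusted p under 0.05 and at least 1.5-fold, applied here to limma's p, 3 members were higher after TBI (background 13.1%) and 3 after MASM + TBI (background 9.18%), in each case Hamp, Tfrc and Id1, while between the irradiated groups these thresholds took 1 member (background 7.82%), Bmp6, whose probe was below background on every array and is not read as a difference. With the methods' t-test in place of limma, these thresholds took Tfrc and Id1 in each comparison with control, where they took 7.43% and 6.75% of all genes, but not Hamp, and 0 members between the irradiated groups (3.37% of all genes). The median log2 fold change of the 10 members was 0.30 for TBI and 0.27 for MASM + TBI against control, beside -0.01 and -0.00 over all genes, and it was 0.34 and 0.23 over the 9 members above background. The comparisons with control share the same 3 control rats, so their values for a gene are not independent of each other.

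**Figure D1:**
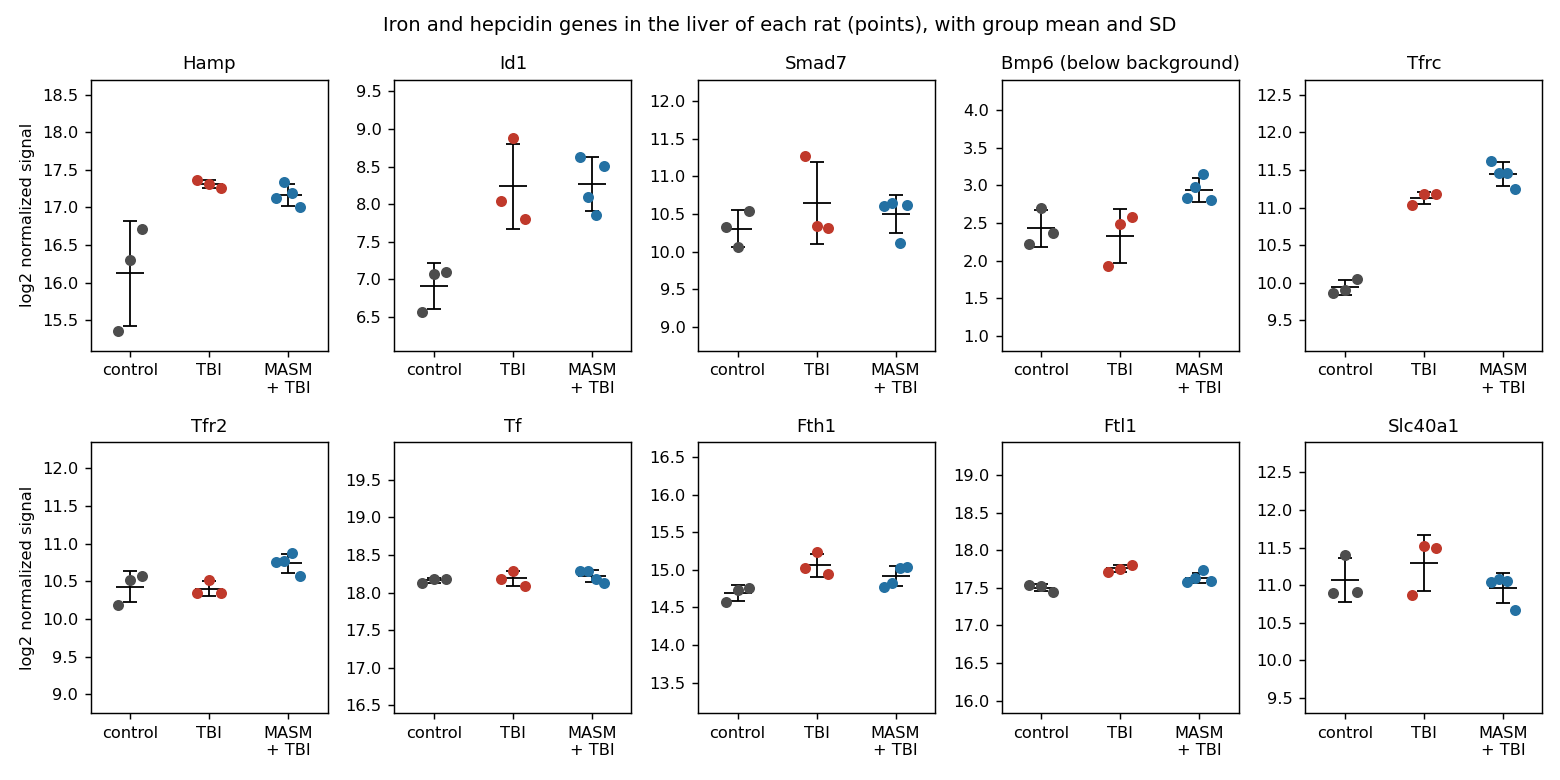
Log2 normalized signal of the 10 members, 1 panel per gene, with the vertical axis spanning the same range in each panel. Each point is 1 rat (3 control, 3 TBI, 4 MASM + TBI), and bars give the group mean and SD. On this quantile-normalized scale, in the Hamp, Id1, Tfrc, Fth1 and Ftl1 panels every irradiated rat lies above every control rat, and Bmp6 lies below background on every array.

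The groups did not overlap for 5 members between TBI and control, where 30.6% of all genes had no overlap, for 7 members between MASM + TBI and control (22.3% of all genes), and for 3 members between MASM + TBI and TBI (17.2% of all genes). Bmp6, below background, was among the 7 and the 3, so that 6 and 2 of the 9 members above background were separated there. Separation without overlap was thus common on these arrays, and in each comparison with control 2 of these members passed the adjusted test.

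Hamp encodes hepcidin. Its log2 signal was 15.36, 16.30 and 16.71 in the control rats, 17.37, 17.31 and 17.26 in the TBI rats, and 17.13, 17.34, 17.19 and 17.00 in the MASM + TBI rats. Every irradiated rat lay above every control rat, and control rat 1 was the lowest, so the spread of the controls (SD 0.70) was several times that of the TBI rats (SD 0.06) and of the MASM + TBI rats (SD 0.14). Hamp ranked between 46 and 260 among 40945 probes, and quantile normalization sets the value of each rank. Scaled to the 75th percentile of each array, the SDs were 0.62 in control, 0.30 after TBI and 0.18 after MASM + TBI, still without overlap with control. Quantile normalization thus gave a smaller spread in the irradiated groups and a larger one in the controls than this scaling. The fitted difference was 1.19 on the log2 scale (SE 0.29, 2.27-fold) for TBI against control, with an adjusted p of 0.0538, and 1.04 (SE 0.27, 2.06-fold) for MASM + TBI against control, with an adjusted p of 0.0894. Hamp therefore missed the threshold in both comparisons. Without control rat 1 the TBI difference was smaller, 0.80, and its adjusted p was 0.0353, while the MASM + TBI difference was 0.66 with an adjusted p of 0.0637. Without control rat 3 the TBI difference was 1.48 and also passed, with an adjusted p of 0.0315. The TBI difference passed in 6 of 9 other settings, with adjusted p from 0.0133 to 0.404 and a lowest difference of 1.16. With slide as a block, fitted without the TBI arrays, the MASM + TBI difference is that of a single rat, rat 3, from the 3 controls on its slide. Its test takes the spread from the control rats and the 3 other MASM + TBI rats and assumes that the lone rat varies likewise. For Hamp it was 1.07 (adjusted p 0.393). Between MASM + TBI and TBI the Hamp difference was -0.14, with a 95% interval from -0.77 to 0.48 (adjusted p 0.833).

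Id1, an inhibitor of helix-loop-helix factors and a direct target of BMP and SMAD signalling, gave 6.56, 7.07 and 7.10 in control rats, 8.04, 8.87 and 7.80 after TBI, and 8.63, 8.09, 7.86 and 8.51 after MASM + TBI. The lowest irradiated rat stood 0.70 above the highest control rat, and the irradiated groups overlapped over most of their range. Id1 rose by 1.33 (SE 0.31, 2.51-fold, adjusted p 0.0479) after TBI and by 1.36 (SE 0.29, 2.57-fold, adjusted p 0.0495) after MASM + TBI, so both calls lay close to the threshold. With each rat left out in turn, the TBI call held without TBI rat 3 or MASM + TBI rat 3 and was lost without any of the 8 others, and the MASM + TBI call held without TBI rat 2 or TBI rat 3 and was lost without any of the 8 others. The adjusted p then reached 0.129 and 0.128, and the differences stayed at or above 1.01 and 1.19. After normexp background correction the differences were both 0.77, with adjusted p of 0.0588 and 0.0544. With slide as a block, MASM + TBI rat 3 alone stood 0.95 above the controls (adjusted p 0.259). The direct difference of the irradiated groups was 0.03, with an interval from -0.64 to 0.70.

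Smad7, the inhibitory SMAD that BMP signalling induces as a brake on itself, did not pass in any comparison. It gave 10.32, 10.06 and 10.54 in control rats, 11.27, 10.34 and 10.31 after TBI, and 10.61, 10.64, 10.11 and 10.62 after MASM + TBI. The 3 groups overlapped, and TBI rat 1 stood above all other rats. Without that rat the TBI difference was 0.02. With all rats the differences from control were 0.34 (interval from -0.29 to 0.96, adjusted p 0.497) and 0.19 (interval from -0.40 to 0.78, adjusted p 0.814). Bmp6, the ligand, read between 2.22 and 2.70 in control rats, 1.92 and 2.57 after TBI, and 2.81 and 3.15 after MASM + TBI, below background on every array. No fold change is given for it, and where it is counted at an unadjusted p or as not overlapping, the signals do not stand out from background.

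Other genes of hepcidin control were followed with a list of 25, of which 20 had a probe. After TBI 2 of these 20 passed the adjusted test, Il6r and Bmp4, and after MASM + TBI 1 passed, Bmp4, all with lower signals. Of all genes, 6.63% and 3.70% passed in these comparisons. Between the irradiated groups 0 of 20 passed, beside 1.08% of all genes, and 1 had an unadjusted p under 0.05, beside 16.5% of all genes. The median log2 fold change of the 20 was 0.02 after TBI and 0.06 after MASM + TBI, beside -0.01 and -0.00 over all genes. Bmp4, another BMP ligand, was below background on every array and is not read as a difference, which leaves Il6r after TBI as the 1 called gene of this list by brightest probe. The Bmp4 calls held with 2 and 4 of the 10 rats left out in turn, and after normexp correction its differences were -0.07 and -0.06.

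Il6r, the receptor subunit that binds IL-6, gave 11.05, 11.28 and 11.12 in control rats, 10.15, 10.51 and 10.46 after TBI, and 10.76, 10.95, 10.83 and 10.90 after MASM + TBI. The 3 groups did not overlap, with the MASM + TBI rats in between. The fall after TBI was -0.78 (SE 0.11, adjusted p 0.00912), the MASM + TBI difference from control was -0.29 (adjusted p 0.204), and the direct difference was 0.48 (SE 0.11, adjusted p 0.0745), which missed the threshold. The fall after TBI passed with any 1 rat left out (adjusted p up to 0.0349) and in 7 of 9 other settings, being lost with 2 groups per fit (adjusted p 0.0567) and with the methods' t-test (0.248). The direct difference passed in 2 of 9, with 75th percentile scaling (adjusted p 0.0385) and with slide as a random block (0.0213). Il6 itself was below background on every array. Stat3, the factor that carries the IL-6 signal, differed from control by 0.45 (adjusted p 0.212) and 0.52 (adjusted p 0.198), and Socs3, its feedback inhibitor, by -0.14 and 0.08 (adjusted p 0.843 and 1.00). The other Stat3 probe differed from control by 0.10 and 0.49 (adjusted p 0.830 and 0.315).

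Of the further Id genes, Id2 gave 11.33, 11.55 and 11.65 in control rats, 12.63, 12.42 and 11.83 after TBI, and 12.15, 12.37, 11.91 and 11.94 after MASM + TBI. Every irradiated rat lay above the controls, with differences of 0.78 (SE 0.21, adjusted p 0.0725) and 0.58 (SE 0.20, adjusted p 0.177) that missed the threshold on this probe, the brightest. The TBI difference of this probe passed in 4 of 9 other settings. The other Id2 probe rose by 1.02 after TBI (SE 0.18, adjusted p 0.0196) and differed by 0.68 after MASM + TBI (adjusted p 0.0788), so the call for Id2 depends on the probe. Id3 differed by 0.04 and -0.13 (adjusted p 0.900 and 0.734). Id4, named after its values were seen, gave 10.94, 10.59 and 10.23 in control rats and 11.37, 11.04 and 11.34 after TBI, without overlap, and its difference of 0.66 (SE 0.21, adjusted p 0.102) missed the threshold. After MASM + TBI it differed by 0.32 with overlap (adjusted p 0.480), and its dimmer probe differed by 0.37 and 0.14, with overlap in both comparisons (adjusted p 0.350 and 0.848). The sensors Hjv, the BMP co-receptor hemojuvelin, and Hfe, the hemochromatosis protein that binds transferrin receptors, differed after TBI by -0.09 and -0.23 (adjusted p 0.631 and 0.304), and Bmp2, the second endothelial ligand of hepcidin, by 0.25 (adjusted p 0.123). No probe carried the symbol Tmprss6.

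Tfrc, the receptor that takes up transferrin-bound iron, rose in both irradiated groups, with the smallest adjusted p of the members in each comparison with control. Its brightest probe gave 9.86, 9.91 and 10.05 in control rats, 11.03, 11.18 and 11.18 after TBI, and 11.62, 11.46, 11.46 and 11.24 after MASM + TBI. The 3 groups did not overlap and stood in the order control, TBI, MASM + TBI. Tfrc rose by 1.19 (SE 0.11, 2.28-fold, adjusted p 0.00139) after TBI and by 1.51 (SE 0.10, 2.84-fold, adjusted p 0.000478) after MASM + TBI. With slide as a block, MASM + TBI rat 3 alone stood 1.52 above the controls (adjusted p 0.0292). Leaving out any 1 rat kept both calls, with differences from 1.15 to 1.24 and from 1.45 to 1.57. The further step from TBI to MASM + TBI was 0.32 (SE 0.10, interval from 0.09 to 0.55), with an adjusted p of 0.166.

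The 2 other Tfrc probes showed the same order of group means. The first differed by 1.34 (adjusted p 0.00631) after TBI and 1.79 (adjusted p 0.00183) after MASM + TBI, and the other by 0.69 (adjusted p 0.0966) and 1.25 (adjusted p 0.0155). Their differences between MASM + TBI and TBI were 0.45 and 0.57 (adjusted p 0.222 and 0.192). All 3 Tfrc probes thus had a positive estimate for MASM + TBI against TBI, and 0 of 3 passed the adjusted test.

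**Figure D2:**
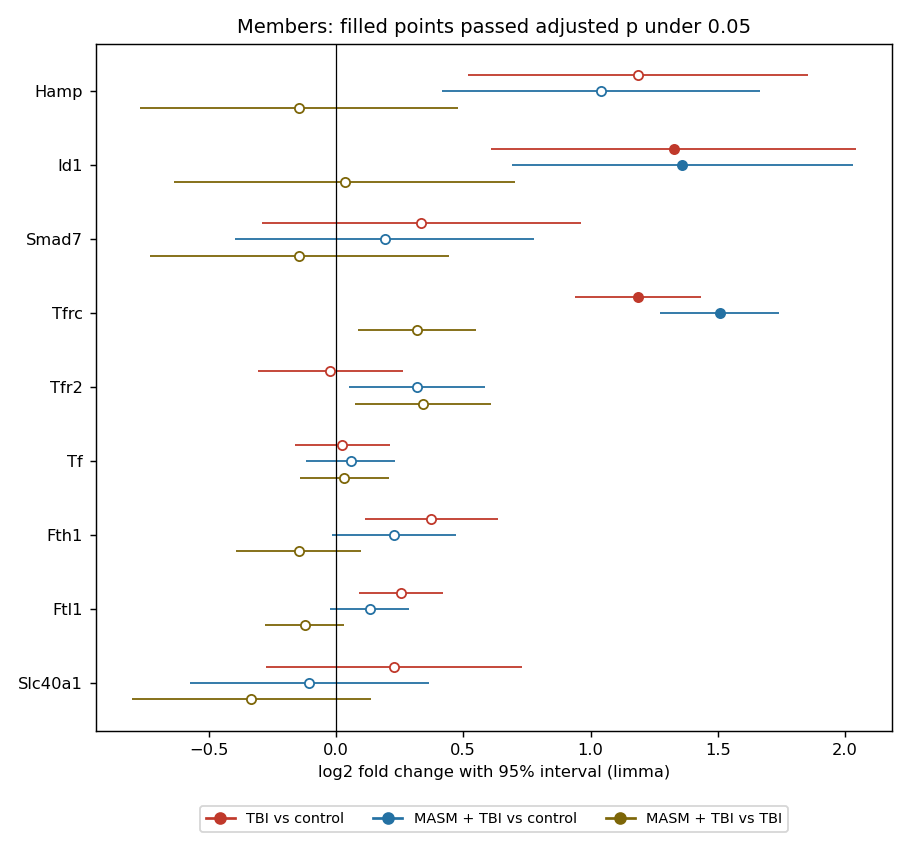
Log2 fold change of 9 members (horizontal axis) with its 95% interval from limma, for the 3 comparisons, leaving out Bmp6, which was below background. Filled points passed an adjusted p under 0.05: Tfrc and Id1 against control in both irradiated groups. Hamp lies at 1.19 and 1.04 with open points, and Tf lies at 0.02 and 0.06.

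Tfr2, the second transferrin receptor, which hepatocytes use to sense iron-loaded transferrin, gave 10.19, 10.52 and 10.56 in control rats, 10.34, 10.52 and 10.34 after TBI, and 10.75, 10.77, 10.88 and 10.57 after MASM + TBI. The MASM + TBI rats lay above all others, the lowest of them by a narrow margin, while control and TBI rats overlapped. The difference was -0.02 for TBI against control (interval from -0.31 to 0.26), 0.32 for MASM + TBI against control (interval from 0.05 to 0.58, adjusted p 0.207) and 0.34 for MASM + TBI against TBI (interval from 0.07 to 0.61, adjusted p 0.191). None of the 3 passed.

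Tf, the plasma carrier transferrin, gave 18.12, 18.18 and 18.18 in control rats, 18.18, 18.29 and 18.09 after TBI, and 18.29, 18.29, 18.18 and 18.12 after MASM + TBI. The groups overlapped, with differences of 0.02 (interval from -0.16 to 0.21) and 0.06 (interval from -0.12 to 0.23) from control. On every array Tf ranked between 1 and 4 among 40945 probes, and quantile normalization gives a rank the same value on all arrays, so hardly any difference could appear for it. Scaled to the 75th percentile of each array instead, Tf ranged from 9.68 to 10.48, with TBI rat 3 the lowest.

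The ferritin subunits Fth1, the heavy chain that oxidises iron, and Ftl1, the light chain that helps it form a core, differed from control by small amounts. Fth1 gave 14.57, 14.74 and 14.76 in control rats, 15.02, 15.23 and 14.94 after TBI, and 14.78, 14.83, 15.03 and 15.03 after MASM + TBI. The irradiated rats all lay above the controls, the lowest of them narrowly, with differences of 0.37 (SE 0.11, 1.30-fold, adjusted p 0.0976) and 0.23 (SE 0.11, adjusted p 0.331). Scaled to the 75th percentile, they were 0.46 (adjusted p 0.0493), which passed, and 0.39 (adjusted p 0.185). Its other probe differed by 0.26 and 0.31 (adjusted p 0.259 and 0.235).

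The brightest Ftl1 probe gave 17.53, 17.53 and 17.44 in control rats, 17.71, 17.75 and 17.81 after TBI, and 17.58, 17.63, 17.73 and 17.60 after MASM + TBI. The groups did not overlap with control, and the differences were 0.26 (SE 0.07, 1.19-fold, adjusted p 0.0813) and 0.13 (adjusted p 0.383). Ftl1 ranked between 18 and 44 among all probes, close to the ceiling that limits Tf. Scaled to the 75th percentile, TBI rat 3, at 9.45, lay below every control rat (9.57 to 9.75), and the TBI difference was 0.12 (adjusted p 0.643). It passed in 2 of 9 other settings, with a trended and robust prior (adjusted p 0.0307) and with slide as a random block (adjusted p 0.0290). The 3 other Ftl1 probes differed after TBI by 0.16, 0.00 and -0.17 (adjusted p from 0.251 to 0.993), so the probes of this gene did not share a direction. With the mean over the probes of Ftl1, its TBI difference was 0.06. Ferritin genes have many processed copies in rodent genomes, and which copies a probe reads was not tested.

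**Figure D3:**
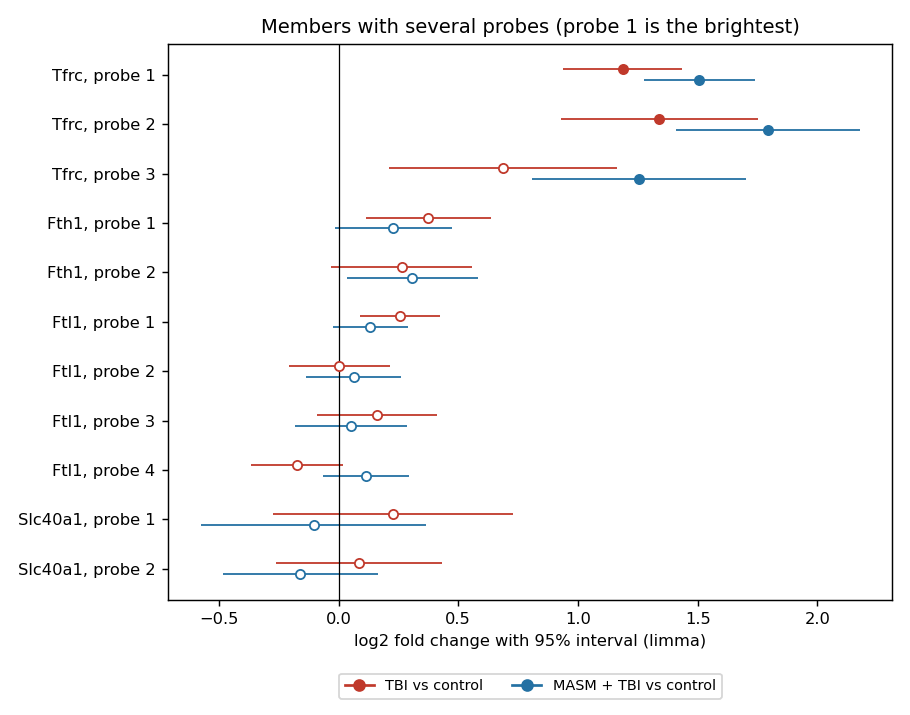
Log2 fold change (horizontal axis) with its 95% interval for every probe of the members that have several, in TBI and MASM + TBI against control. Probe 1 is the brightest, and filled points passed an adjusted p under 0.05. The 3 Tfrc probes all lie right of 0 in both comparisons, while the 4 Ftl1 probes after TBI run from -0.17 to 0.26.

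Slc40a1, the iron exporter ferroportin, gave 10.89, 11.40 and 10.91 in control rats, 10.87, 11.53 and 11.50 after TBI, and 11.05, 11.08, 11.06 and 10.67 after MASM + TBI. The groups overlapped, with differences of 0.23 (interval from -0.27 to 0.73, adjusted p 0.566) and -0.10 (interval from -0.57 to 0.36, adjusted p 0.921) from control and -0.33 (interval from -0.80 to 0.14, adjusted p 0.460) between the irradiated groups. With 1 rat left out in turn, the differences from control ran from 0.11 to 0.44 after TBI and from -0.19 to 0.06 after MASM + TBI. The other Slc40a1 probe differed by 0.09, -0.16 and -0.25.

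Ferroportin is abundant in Kupffer cells, the macrophages of the liver that recycle iron from red cells. The mean log2 signal of 8 Kupffer cell markers was 11.54, 12.22 and 11.96 in control rats, 11.81, 12.79 and 12.52 after TBI, and 11.84, 11.73, 11.46 and 11.42 after MASM + TBI. The rats with the highest Slc40a1 signal, control rat 2 and TBI rats 2 and 3, were also the 3 highest in these markers. On the dimmer Slc40a1 probe control rat 2 and TBI rat 2 were again the highest, while TBI rat 3, at 8.06, lay below control rat 1, at 8.16. All 8 markers were above background on every array, and 0 of 8 passed an adjusted test in any comparison. Their estimates were higher after TBI than in control for 8 of 8 (1 at an unadjusted p under 0.05), and lower in MASM + TBI than in TBI for 8 of 8 (7 at an unadjusted p under 0.05, where 9.43% of all genes were lower at that p). The summed signal of the list ranged from 90533 to 139520 in control rats, 94879 to 175590 after TBI and 73274 to 94332 after MASM + TBI. Their part in the Slc40a1 values was not tested.

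Hmox1, the enzyme that frees iron from heme and is abundant in the same macrophages, gave 9.17, 9.98 and 9.71 in control rats, 9.37, 10.60 and 10.23 after TBI, and 9.35, 9.59, 9.27 and 8.91 after MASM + TBI. TBI rats 2 and 3 and control rat 2 were again the 3 highest. Its differences were 0.45 and -0.34 from control and -0.78 between the irradiated groups (adjusted p 0.460, 0.679 and 0.250). With 1 rat left out in turn, they ran from 0.18 to 0.79, from -0.56 to -0.16 and from -1.13 to -0.52.

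**Figure D4:**
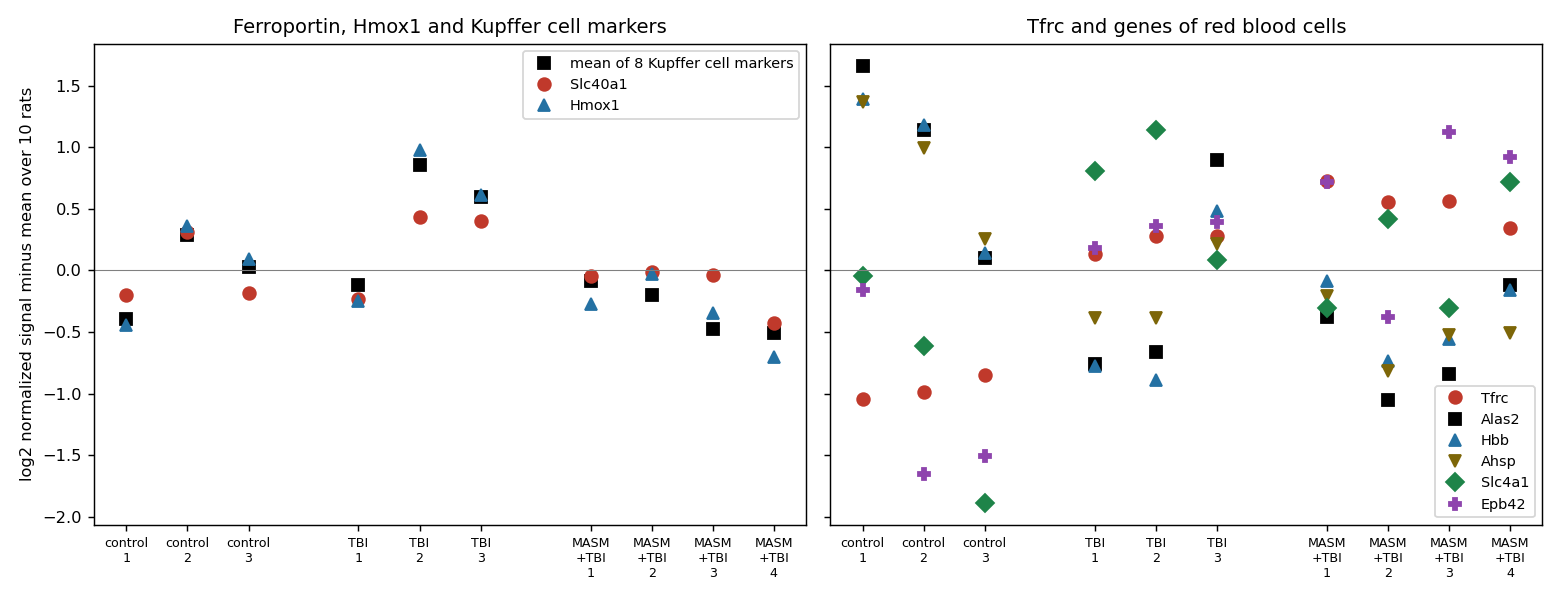
Log2 normalized signal of each rat minus the mean over the 10 rats. The left panel sets Slc40a1 (brightest probe) and Hmox1 beside the mean of 8 Kupffer cell markers, all of them highest in TBI rats 2 and 3 and control rat 2. The right panel sets Tfrc, lowest in the 3 control rats, beside 5 red cell genes: Alas2, Hbb and Ahsp are high in control rats 1 and 2, while Slc4a1 lies on average higher in the irradiated rats, and Epb42 was above background on 1 of 3 control arrays.

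Of a wider list of 34 iron and heme handling genes, 30 had a probe. After TBI 1 rose (Lrp1) and 2 fell (Slc46a1 and Slc25a28), and after MASM + TBI 0 rose and 2 fell (Slc25a28 and Hmox2). Between the irradiated groups 0 of 30 passed, beside 1.08% of all genes, and 5 had an unadjusted p under 0.05, beside 16.5% of all genes. The median log2 fold change of the 30 was 0.11 after TBI and 0.06 after MASM + TBI. With the hepcidin control list, 5 of 50 genes passed after TBI and 3 of 50 after MASM + TBI, Bmp4 included in both, beside 6.63% and 3.70% of all genes.

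Lrp1, a scavenger receptor that takes up heme bound to hemopexin among many ligands, gave 9.91, 10.05 and 10.13 in control rats, 10.55 or more in each TBI rat (mean 10.60), and 10.16, 10.39, 10.41 and 10.10 after MASM + TBI. The TBI rats lay above all others on this probe, and Lrp1 rose by 0.57 (SE 0.11, adjusted p 0.0260). The dimmer Lrp1 probe differed by 0.26 (SE 0.25, adjusted p 0.563), with overlapping groups and TBI rat 3 the lowest of the 10 rats, so the rise rests on 1 of 2 probes. The MASM + TBI difference from control was 0.23 (adjusted p 0.304) and the direct difference -0.34 (adjusted p 0.158). The Lrp1 call was lost without any 1 of the control rats or without TBI rat 1 or 2, with an adjusted p up to 0.0768.

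Slc46a1, a carrier of folate and heme, gave 10.95, 10.98 and 11.05 in control rats, 10.53, 9.72 and 9.77 after TBI, and 10.03, 10.16, 10.18 and 10.43 after MASM + TBI. Every irradiated rat lay below every control rat, with differences of -0.99 (SE 0.21, adjusted p 0.0330) and -0.79 (SE 0.19, adjusted p 0.0723), of which the first passed. Its dimmer probe differed by -0.56 and -0.25 (adjusted p 0.0915 and 0.503). The call held without TBI rat 1, MASM + TBI rat 3 or MASM + TBI rat 4 and was lost without any of the 7 others (adjusted p up to 0.103). Slc25a28, a mitochondrial iron importer, gave 9.77 to 9.99 in control rats, 9.25 to 9.48 after TBI and 9.25 to 9.36 after MASM + TBI. It fell by 0.47 (SE 0.09, adjusted p 0.0260) and by 0.56 (SE 0.09, adjusted p 0.0145), without overlap with control. The first call was lost without control rat 2 or 3 (adjusted p up to 0.0868), and the second without either of these or MASM + TBI rat 1 (adjusted p up to 0.0613). The first passed in 6 of 9 other settings and the second in 6 of 10, being lost for example with 75th percentile scaling (adjusted p 0.0544). Hmox2, the heme oxygenase present without induction, gave 12.54 to 12.91 in control rats, 12.27 to 12.41 after TBI and 12.06 to 12.23 after MASM + TBI. Its difference was -0.34 after TBI (adjusted p 0.106), and it fell by 0.53 (SE 0.10, adjusted p 0.0338) after MASM + TBI, a call that held without control rat 1, TBI rat 1 or TBI rat 3 and was lost without any of the 7 others. Its dimmer probe fell by 0.80 after MASM + TBI (SE 0.17, adjusted p 0.0480). The Hmox2 call passed in 5 of 10 other settings, and with 75th percentile scaling the difference of the brightest probe was -0.40 (adjusted p 0.129).

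The messengers of the iron regulatory proteins, which control Tfrc and ferritin messengers, showed no called difference: Aco1 differed from control by 0.10 and 0.19 (adjusted p 0.557 and 0.313) and Ireb2 by -0.03 and 0.09 (adjusted p 0.958 and 0.953). The amount and the binding of these proteins were not measured. The plasma proteins that bind heme iron, Hp for hemoglobin and Hpx for heme, and the ferroxidase Cp differed after TBI by 0.15, 0.17 and 0.20 (adjusted p 0.243, 0.318 and 0.463). The Hp signal, like that of Tf, lay near the top of every array.

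**Figure D5:**
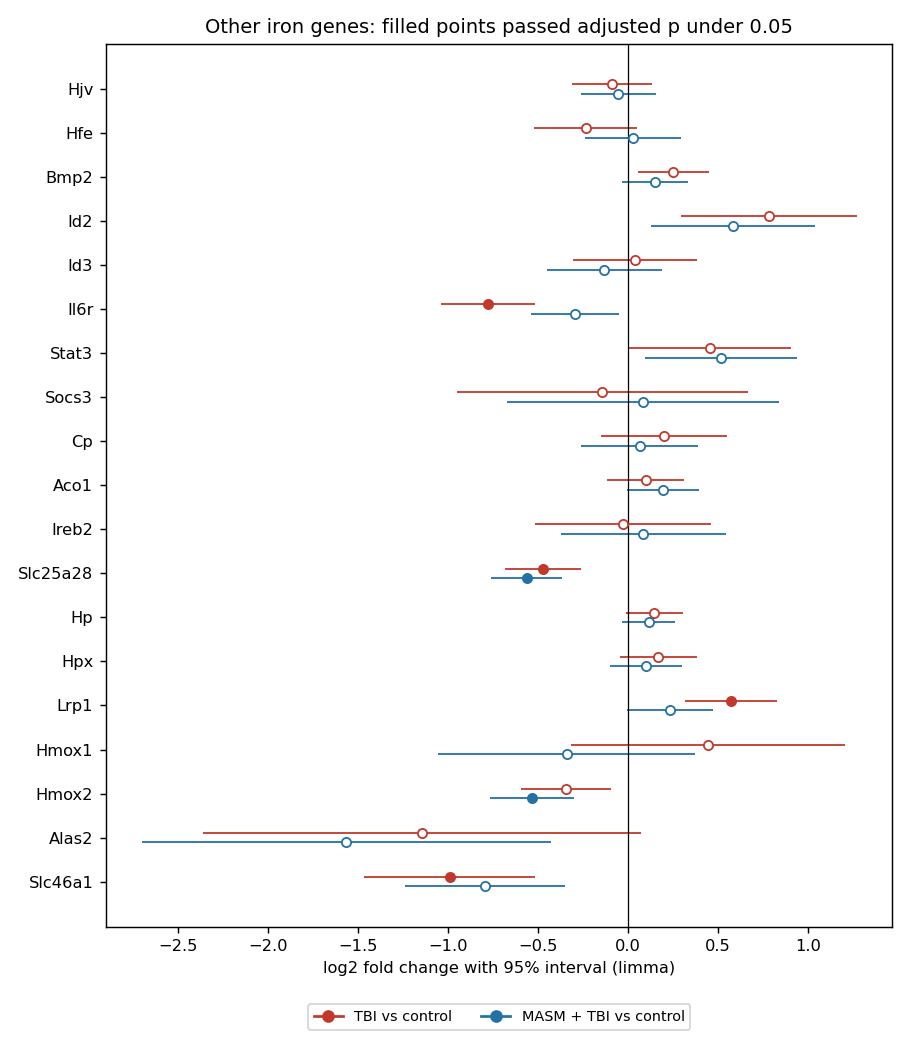
Log2 fold change (horizontal axis) with its 95% interval for the other hepcidin control and iron genes named in the text (brightest probe of each, without those below background), in TBI and MASM + TBI against control. Filled points passed an adjusted p under 0.05. Filled points lie left of 0 for Il6r, Slc25a28, Hmox2 and Slc46a1, and right of 0 for Lrp1 alone among the genes drawn.

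Young red cells carry much Tfrc messenger, and the erythroid markers were therefore set beside it. Alas2, the first enzyme of heme synthesis in red cells, gave 9.60, 9.08 and 8.05 in control rats, 7.18, 7.28 and 8.84 after TBI, and 7.56, 6.89, 7.10 and 7.83 after MASM + TBI. TBI rat 3 lay within the range of the controls, and the 6 other irradiated rats lay below every control. The differences from control were -1.14 and -1.56 (adjusted p 0.238 and 0.147). Of 7 erythroid markers with a probe, 0 passed after TBI (6.63% of all genes), with 4 at an unadjusted p under 0.05 (25.3% of all genes). After MASM + TBI 1 passed (3.70% of all genes), Ahsp, a hemoglobin chaperone, which fell by 1.39 (adjusted p 0.0386). Hbb, a globin, differed by -1.30 and -1.29, while the red cell membrane gene Slc4a1 differed by 1.53 after TBI (adjusted p 0.117) and by 0.98 after MASM + TBI (adjusted p 0.346), with estimates of the opposite sign to those of Alas2, Hbb and Ahsp. Epb42, another membrane gene, was above background on 1 of 3 control arrays and on all irradiated ones, and no size is given for it. The summed signal of the list ranged from 1837 to 4355 in control rats, 1284 to 2407 after TBI and 1200 to 1718 after MASM + TBI. Rhag was below background on every array. The part of red cells in the Tfrc values was not tested.

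Among the endothelial markers, of which 5 of 8 had a probe and all 5 were above background on every array, 0 passed after TBI or MASM + TBI, with 3 and 2 at an unadjusted p under 0.05, beside 25.3% and 20.5% of all genes. Their mean log2 signal lay between 9.29 and 9.58 in control rats, 9.56 and 9.80 after TBI, and 9.32 and 9.66 after MASM + TBI. The B lymphocyte list, with 3 of 6 genes on the array, lay between 4.57 and 5.05 in control rats, 3.64 and 4.05 after TBI, and 3.62 and 3.86 after MASM + TBI, with Cd79b called lower in both irradiated groups. The part of these cells in the member values was not tested.

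The genes most like Hamp and Tfrc over the 10 arrays were found by the root mean square difference of their log2 signals, each centred on its own mean, over 8439 named genes above background on every array. For Hamp, whose own root mean square deviation was 0.60, they were Tmprss4, Fgl1, Cpt1b, Ppil3 and Bax, with differences from 0.288 to 0.331. Fgl1 encodes a secreted liver protein, and its group means were 13.89 in control, 14.57 after TBI and 14.71 after MASM + TBI. For Tfrc, whose own deviation was 0.65, they were Bax, Gpam, Tp53inp1, Mdm2 and Zmat3, with differences from 0.199 to 0.247. Mdm2, the ubiquitin ligase that holds p53 in check, had group means of 8.95, 9.91 and 10.32 in the order control, TBI and MASM + TBI, and Gpam, which starts triglyceride synthesis, 6.77, 8.29 and 8.36. Likeness here is a description over 10 arrays that share their groups.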

How the data were processed

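Liver RNA of 10 rats was labelled with Cy3 and hybridised to 1 Agilent 4x44K rat array each. Per the file headers, the deposited spot intensities came from Feature Extraction 10.7.3.1, on a linear scale, with background subtracted and without normalization between arrays. The processed values deposited for the series were identical to them.

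After removal of control spots and outlier spots (saturation: 0 spots), log2 intensities were normalized by the quantile algorithm that the methods name, and replicate spots of a probe were averaged, which left 40945 probes with a value on every array. Each gene is given by its brightest probe. Symbols came from matching 20707 probes that carry RefSeq accessions to RefSeq's list of genes, by which 16968 were named. Array positions are not given, since the array and that list use different assemblies. A model with 3 group means was fitted to all 10 arrays with limma 3.58.1 (R 4.3.3, version 1.17.8 of data.table), with the Benjamini-Hochberg adjustment run across every probe. The study's thresholds (unadjusted p under 0.05 and at least 1.5-fold) were counted beside it with limma's p and, as the study's text names a simple t-test, with the methods' t-test. The model was tested on simulated data. Figures used matplotlib 3.10.9 in Python 3.11.15. Each array is a different rat, and the number of rats limits the precision.

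The genes named by rule are the 10 members, the genes of both iron lists that passed in a comparison, a fixed set of regulators whatever their values, and the 5 genes most like Hamp and Tfrc. Further genes, such as Id4, Slc25a37, Slc39a14 and Lcn2, were named after their values were seen. The members and lists were chosen with earlier results of these data known. Alternatives were 75th percentile scaling, normexp background correction with an offset of 50, the series table, dim probes left out, 2 groups per fit, the methods' t-test on log2 values, a block by slide or by replicate number, a robust trended prior, the mean over a gene's probes, and each rat left out in turn.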

Additional observations from a re-analysis of the deposited data

Results flagged for a closer look

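Among the 4 MASM + TBI rats, the Slc40a1 log2 signal of rat 4 was 10.667, far below the other 3, which lay between 11.05 and 11.08, and the gap took a share of 0.912 of the group's range, above Dixon's critical value for 4 samples. On the dimmer Slc40a1 probe rat 4 was also the lowest, at 7.84, but the largest gap share of the group was 0.497, below that value. The same rat had the lowest Kupffer cell marker mean of all 10 rats, 11.42, and the lowest Hmox1 signal, 8.91. In the same group the Smad7 log2 signal of rat 3 was 10.113, with the other 3 between 10.61 and 10.64 and a gap share of 0.932. Rat 3 was the MASM + TBI rat hybridised on the slide of the controls. Chance flags about 1 in 20 groups, and the 10 members were examined in the MASM + TBI group alone, since the other groups held 3 rats.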

How the results depend on the processing

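As reported, 2 members and 5 of the 50 other iron genes passed for TBI against control, 2 and 3 for MASM + TBI against control, and 0 and 0 for MASM + TBI against TBI. With 75th percentile scaling the counts were 4 and 10 for TBI, 1 and 0 for MASM + TBI, and 3 other iron genes between the irradiated groups. Normexp left 1 member for MASM + TBI. A fit with 2 groups left 1 member and 0 other genes for TBI, and the methods' t-test left 0 and 0 for TBI and 1 and 0 for MASM + TBI. A trended and robust prior gave 4 members for TBI. Slide as a random block gave 5 and 12 for TBI and 2 other genes between the irradiated groups, and slide as a fixed block, which compares MASM + TBI rat 3 with the controls, left 1 and 0 for MASM + TBI. The other settings gave counts within 1.5 times those reported. Leaving out each rat in turn gave 1 to 2 members and 1 to 6 other genes for TBI, 1 to 2 and 0 to 4 for MASM + TBI, and 0 members and 0 to 2 other genes between the irradiated groups. For the altered settings the share of all genes that passed is not given here, so their counts stand without a background.

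With the replicate block the counts were 1 member and 1 other gene for TBI and 1 and 0 for MASM + TBI. The numbers do not pair the rats: of 9 same-number pairs, 1 correlated above 0.1, over a range from -0.13 to 0.17.

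Tfrc kept its call for TBI in 8 of 9 settings, the exception being the methods' t-test (adjusted p 0.129), and for MASM + TBI in 10 of 10, not counting the series table, whose values were identical to those of the scanner files. Id1 passed in 5 of 9 settings for TBI and in 5 of 10 for MASM + TBI, and Hamp in 6 of 9 and 2 of 10. No called value changed sign, and 53 of 1734 recomputed values for single genes, none of them called, had the opposite sign. The causes of these shifts were not tested.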

Other observations

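A set of 3 further iron genes was chosen after their values were seen. Slc25a37, a mitochondrial iron importer, gave 5.87, 5.56 and 5.56 in control rats, 5.16, 4.87 and 4.58 after TBI, and 5.65, 5.40, 6.06 and 5.66 after MASM + TBI, so the TBI rats lay below all others. Its limma difference was -0.79 for TBI against control (adjusted p 0.0573) and 0.82 for MASM + TBI against TBI (adjusted p 0.0794), both short of the threshold. The brightest of 4 probes of Slc39a14, a carrier of iron not bound to transferrin, differed from control by 0.89 and 0.71 (adjusted p 0.157 and 0.297), with MASM + TBI rat 4 at 9.43, within the range of the controls. The 3 dimmer probes differed by only 0.16, 0.18 and 0.03 after TBI and by 0.45, 0.48 and 0.42 after MASM + TBI (adjusted p 0.149, 0.137 and 0.113), with all MASM + TBI rats above the controls, so the probes disagree on the TBI rats. Lcn2, a siderophore-binding protein of the acute phase, ranged from 4.12 to 9.90 and varied as widely within each group as between them, with a TBI difference of 0.86 (SE 1.56).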
